A study of Mus musculus with 20 samples.

Results

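The genes described here encode the plasma proteins of the complement cascade and of blood coagulation, together with the inhibitors that hold both in check. The list was written from textbook knowledge of these cascades, but with earlier results of these data known. It holds 38 genes, of which 35 have a probe set on the array that stands for that gene alone. They comprise 13 genes of complement activation and attack, 13 of clotting and fibrinolysis, and 9 inhibitors and regulators, out of 19661 genes measured in this way. *Klkb1* shares its probe set with *Cyp4v3* and was left out, and *C3* and *Cpb2* were not analysed here.

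Whole liver RNA from 20 mice was hybridized to GeneChip Mouse Gene 1.0 ST microarrays, 1 mouse per array. All mice had a mixed 129Pas x C57Bl/J background and were 8 weeks old and untreated, with free access to food and lights on from 7 am to 7 pm. The 4 groups were wild-type (WT) and Crem-/- (KO) mice killed when the light came on (0 h) and WT and KO mice killed when it went off (12 h), with 5 mice in each. The KO allele carries a neomycin resistance cassette in the part of *Crem* that encodes its DNA binding domains, and every cell of a KO mouse carries it, so the design compares whole animals and not hepatocytes alone. The labels put the 0 h livers in batches 1, 2, 3 and 4, each with both genotypes, and all 12 h livers in batch 5, so that time cannot be told apart from batch. No label gives the sex of these mice. The study's methods describe male animals for testis, and on all 20 arrays the Y-linked *Eif2s3y* was between 9.18 and 10.53 and *Xist* between 4.73 and 5.81. One 0 h library is labelled KO mouse 1, a number that the study's supplement uses for a younger WT animal, and it was kept under its label. Defining markers of hepatocytes were present on every array, with a mean log2 level over 8 genes between 13.72 and 13.87. In whole liver, fewer cells of a type and less RNA per cell cannot be told apart.

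Complement is a chain of plasma proteases that marks a target with cleaved protein fragments and ends in a pore built from the terminal components. It is started by antibody, by lectins that bind microbial sugars, or by a spontaneous alternative route, and C4 and C2 or factor B form the enzymes that carry it forward. Coagulation is a similar chain that ends when thrombin cuts fibrinogen, a protein of 3 different chains, into fibrin. Hepatocytes make and secrete nearly all of these proteins, and many of them belong to the acute phase proteins, whose transcription changes in inflammation. *Crem* encodes transcription factors of the cAMP pathway that bind the cAMP response element.

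A pair of gene sets carries the results below, the fibrinogen chains and the mannose-binding lectins. Their promoters are shown because the genes of a set are closely related and the signals of their probe sets changed to unequal extents. *Fgg*, *Fga* and *Fgb* stand side by side on chromosome 3 with 0 protein-coding genes between them, whereas *Mbl1* lies on chromosome 14 and *Mbl2* on chromosome 19. Each window runs from 250 bases before to 50 bases after the transcription start in RefSeq (GRCm38.p6) and is written 5′ to 3′ on the strand of the gene. Capitals mark every match, on either strand, to one of 6 sets of letters: the cAMP response element TGACGTCA, its core TGACG, the E-box CACGTG, the D-box TTATGTAA, the nuclear receptor core AGGTCA and the HNF1 core GTTAAT.
Fgg promoter, chr3:83007474-83007773, plus strand: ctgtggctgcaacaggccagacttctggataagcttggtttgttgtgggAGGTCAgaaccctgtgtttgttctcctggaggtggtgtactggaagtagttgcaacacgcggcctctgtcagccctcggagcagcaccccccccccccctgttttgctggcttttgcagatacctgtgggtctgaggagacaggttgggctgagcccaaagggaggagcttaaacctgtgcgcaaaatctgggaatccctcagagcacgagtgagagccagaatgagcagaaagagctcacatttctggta
Fga promoter, chr3:83025903-83026202, plus strand: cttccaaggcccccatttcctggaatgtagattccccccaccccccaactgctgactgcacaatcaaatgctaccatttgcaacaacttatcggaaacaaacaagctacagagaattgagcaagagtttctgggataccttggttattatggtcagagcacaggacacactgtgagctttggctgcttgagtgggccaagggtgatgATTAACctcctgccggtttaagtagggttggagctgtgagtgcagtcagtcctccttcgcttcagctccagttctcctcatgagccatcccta
Fgb promoter, chr3:83049814-83050113, minus strand: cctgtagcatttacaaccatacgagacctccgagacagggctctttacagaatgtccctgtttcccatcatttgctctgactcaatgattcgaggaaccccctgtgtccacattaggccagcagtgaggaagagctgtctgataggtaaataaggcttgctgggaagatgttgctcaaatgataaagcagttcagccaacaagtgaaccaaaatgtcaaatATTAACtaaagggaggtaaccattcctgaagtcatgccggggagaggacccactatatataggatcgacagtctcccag
Mbl1 promoter, chr14:41151206-41151505, plus strand: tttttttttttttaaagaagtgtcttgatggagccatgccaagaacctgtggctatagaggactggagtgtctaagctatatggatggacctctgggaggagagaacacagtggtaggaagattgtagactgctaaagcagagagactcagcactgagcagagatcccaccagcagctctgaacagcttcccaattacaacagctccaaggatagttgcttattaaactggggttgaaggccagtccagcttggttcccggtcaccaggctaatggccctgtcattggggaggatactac
Mbl2 promoter, chr19:30232678-30232977, plus strand: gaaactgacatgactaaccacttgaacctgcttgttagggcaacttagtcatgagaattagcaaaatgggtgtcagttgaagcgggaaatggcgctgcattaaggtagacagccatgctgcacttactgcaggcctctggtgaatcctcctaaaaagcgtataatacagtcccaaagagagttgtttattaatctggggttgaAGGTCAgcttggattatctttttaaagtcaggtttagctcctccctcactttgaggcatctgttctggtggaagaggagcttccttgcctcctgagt

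In the window of *Fga* the only match was an HNF1 core 43 bases before the start, and in that of *Fgb* an HNF1 core 29 bases before it. *Fgg* held an AGGTCA core 201 bases and *Mbl2* one 47 bases before the start. The window of *Mbl1* held no match to any of the 6. RefSeq windows were found for 29 of the 38 listed genes (30 windows), and these were set against all 32851 windows of the same length. The HNF1 core was in 9 member windows (30.0%, against 7.1% of all windows) and the AGGTCA core in 12 (40.0%, against 16.3%). The core TGACG, which also lies within the full element, was in 7 (23.3%, against 20.8%), and the full cAMP response element in 1, that of *Cpb2* (3.33%, against 1.79%). *Cpb2* was not analysed on the arrays, so no measured member with a window held the full element. *Cpb2* is also among the 7, and *C3*, not analysed either, is among the 12 with the AGGTCA core. The E-box (7.15% of all windows) and the D-box (0.938%) were in 0. Such matches are letters in a short window and not binding sites, and were not tested.

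All 35 measured members were bright. As a description of signal and not of transcript number, the mean log2 level of a member over the 20 arrays lay between 10.16 and 13.79, where the median of all 25689 probe sets was 7.17, and below the brightest probe set of every array (14.30 to 14.60). The standard deviation between mice of a group was 0.09 in the median member (log2 scale, 35 members), against 0.16 over all probe sets and 0.11 over the 2569 brightest of them. It was smallest for *Masp1* (0.05), a protease of the lectin route, and largest for *C6* (0.38), a component of the pore. *Mbl1* (0.21), *F11* (0.17), *Fga* (0.16), *Mbl2* (0.16) and *C9* (0.15) followed *C6*.

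The comparison of 12 h with 0 h asked which of these transcripts differed between the end and the onset of light. Most that passed the test were lower at 12 h, in both genotypes. In WT livers 17 of 35 members fell and 1 rose, and 14.3% of all probe sets fell and 13.5% rose (limma, Benjamini-Hochberg adjusted p under 0.05 over all 25689 probe sets). In KO livers 14 fell and 2 rose, and 9.69% of all probe sets fell and 10.6% rose. The median log2 change of the members was -0.19 in WT and -0.16 in KO livers, and that of all probe sets -0.03 and -0.02. Among the 2569 brightest probe sets, 20.9% fell and 24.6% rose in WT livers, and 22.5% fell and 20.9% rose in KO livers.

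The called members overlapped: 14 fell in both genotypes and *Masp1* rose in both, which is 15 of the 18 called in WT and 15 of the 16 called in KO livers. The same overlap was not counted over all probe sets, so these counts are a description. *Cfb*, *Hc* and *C8a* fell in WT livers and missed the threshold in KO livers, *C4b* rose in KO livers and missed it in WT livers, and 16 members passed in neither. That a gene passed in 1 genotype does not show a difference between them, and in the test of that difference 0 of 35 members passed. The 2 genotypes share no mouse in this comparison but share batch 5 at 12 h. For 14 members every 12 h liver lay below every 0 h liver in WT mice, and for 13 in KO mice, against 8.33% and 7.49% of all probe sets. For 2 members in each genotype every 12 h liver lay above, against 9.21% and 8.87%.

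**Figure D1:**
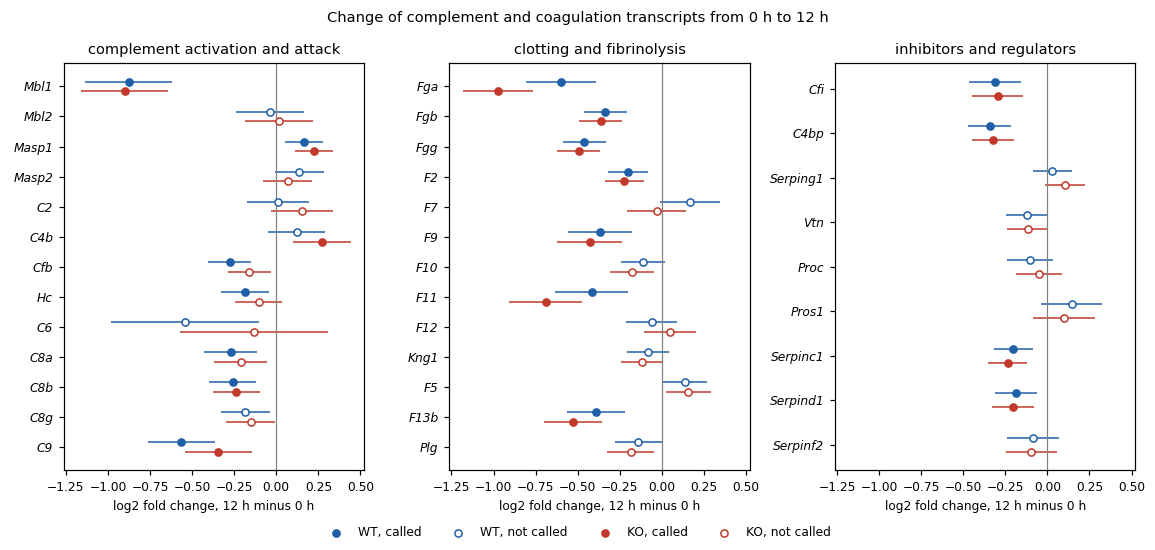
Log2 fold change from 0 h to 12 h (x axis, 12 h minus 0 h) of the 35 members, in WT (blue) and KO livers (red), in panels by class. Points are limma estimates, bars 95% confidence intervals, and filled points passed an adjusted p under 0.05. The 3 fibrinogen chains, *Mbl1*, *C9*, *F11* and *F13b* lie left of 0 in both genotypes, and *Masp1* lies right of it.

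All 3 fibrinogen chains fell in both genotypes. *Fga*, which encodes the alpha chain, had log2 levels of 11.91, 11.91, 12.08, 12.09 and 12.13 in WT livers at 0 h and of 11.12, 11.33, 11.51, 11.58 and 11.59 at 12 h. KO livers had 11.79, 12.00, 12.12, 12.17 and 12.17 at 0 h and lay between 10.83 and 11.26 (median 11.10) at 12 h. The groups did not overlap in either genotype, and the 3 lowest values were those of KO livers at 12 h. The log2 change was -0.60 in WT (standard error 0.10, adjusted p = 0.000149 from limma) and -0.97 in KO livers (standard error 0.10, adjusted p = 4.86e-07), or 1.51-fold and 1.96-fold lower. A second probe set of *Fga* gave -0.51 in WT (adjusted p = 0.0089) and -1.07 in KO livers (adjusted p = 8.24e-06).

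*Fgb*, the beta chain, ranged from 13.70 to 13.80 (median 13.78) in WT livers at 0 h and had 13.38, 13.38, 13.40, 13.40 and 13.55 at 12 h. In KO livers it ranged from 13.73 to 13.87 (median 13.81) at 0 h and had 13.28, 13.46, 13.46, 13.51 and 13.54 at 12 h. All 12 h livers thus lay below all 0 h livers, and the log2 change was -0.34 in WT and -0.36 in KO livers (standard error 0.06 in both, adjusted p = 0.000347 and 0.000178 from limma). *Fgg*, the gamma chain, ranged from 13.70 to 13.78 (median 13.75) in WT livers at 0 h and had 13.23, 13.23, 13.23, 13.26 and 13.47 at 12 h. In KO livers it ranged from 13.70 to 13.82 (median 13.78) at 0 h and had 13.19, 13.25, 13.27, 13.34 and 13.39 at 12 h. Again no 12 h liver reached a 0 h liver, and the log2 change was -0.46 in WT (adjusted p = 1.1e-05) and -0.49 in KO livers (adjusted p = 5.13e-06).

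The log2 changes of the probe sets of the 3 chains were not equal. The change of *Fga* exceeded that of *Fgb* by -0.26 in WT and -0.61 in KO livers, and that of *Fgg* by -0.14 in WT and -0.48 in KO livers. *Fgg* exceeded *Fgb* by -0.13 in both genotypes. Permuting the 10 mice of a genotype between the times gave p = 0.0079 for each of these (exact permutation test, two-sided), the smallest that 5 mice against 5 allow, except for *Fga* against *Fgg* in WT livers (p = 0.15). These are 6 of 14 such tests on pairs of related members that were chosen after their values were seen, and the exact p of 0.0079 became 0.014 when adjusted over the 14.

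**Figure D2:**
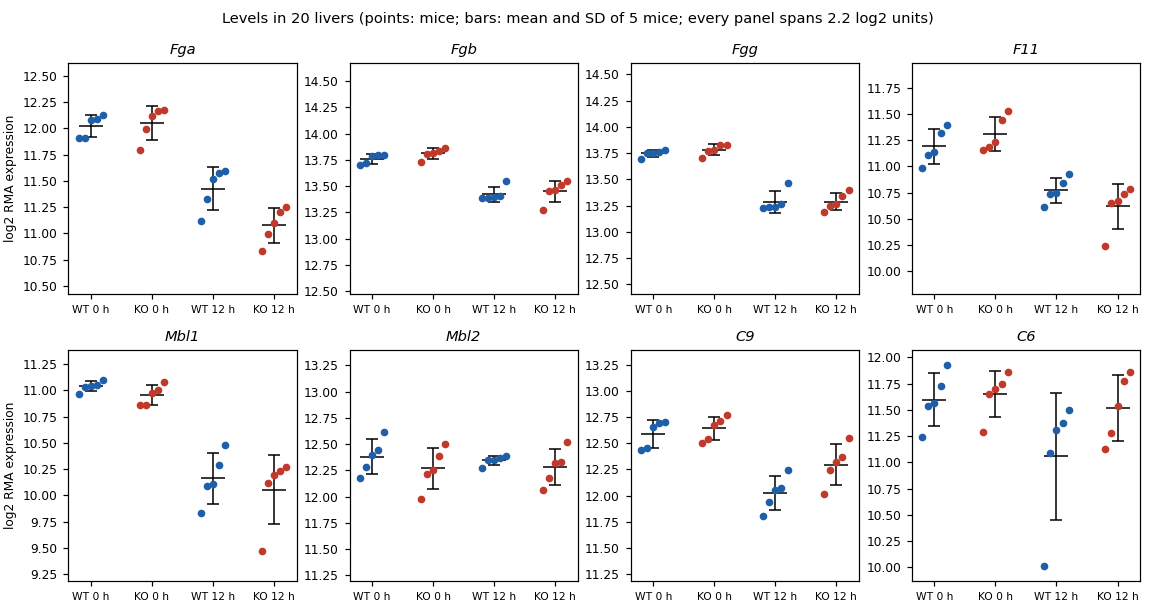
Log2 RMA expression (y axis, every panel spanning 2.2 log2 units) of 8 members in the 20 livers, WT in blue and KO in red. Points are mice, the bars mean and SD of 5 mice. *Fga*, *Fgb*, *Fgg*, *F11*, *Mbl1* and *C9* are lower at 12 h than at 0 h, *Mbl2* overlaps between the times, and 1 WT liver at 12 h lies apart for *C6* (10.01).

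Mice that deviated from their group in one chain also deviated in another. After the group means were removed, *Fgb* and *Fgg* had Pearson's r = 0.86 (permutation within groups, p = 9e-05, adjusted over 3 pairs 0.00027) and Spearman's rho = 0.83 (p = 0.0002, adjusted 0.0006) over the 20 mice. Without WT mouse 111 and KO mouse 166, the mice farthest from the median in *Fgb*, r was 0.83. For *Fga* with *Fgg*, r was 0.56 (permutation p = 0.0415, adjusted 0.058) and rho 0.52 (p = 0.037, adjusted 0.037). For *Fga* with *Fgb*, r was 0.50 (permutation p = 0.058, adjusted 0.058) and rho 0.53 (p = 0.026, adjusted 0.037). Both r fell to 0.46 without WT mouse 167 and KO mouse 76. All chains of a mouse come from 1 array and share its normalization.

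**Figure D3:**
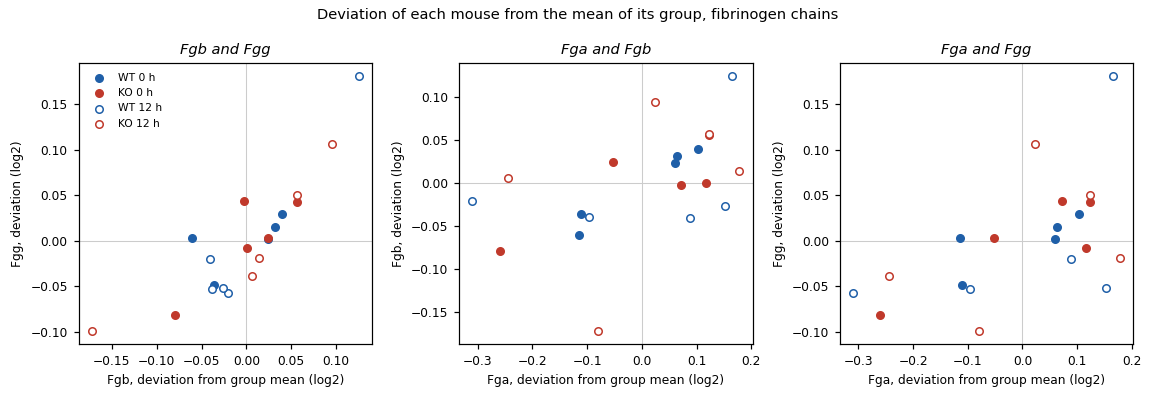
Deviation of each of 20 mice from the mean of its group (log2) for pairs of fibrinogen chains, filled points at 0 h and open points at 12 h, WT in blue and KO in red. *Fgb* and *Fgg* deviate together (r = 0.86), with *Fga* less closely tied to either (r = 0.50 and 0.56).

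Of the other clotting proteins, *F2*, *F9*, *F11* and *F13b* fell in both genotypes and 6 genes of the class passed in neither. *F11*, which encodes factor XI of the contact route, had 10.99, 11.11, 11.14, 11.32 and 11.40 in WT livers at 0 h and 10.61, 10.74, 10.74, 10.84 and 10.93 at 12 h. KO livers had 11.16, 11.18, 11.23, 11.44 and 11.53 at 0 h and 10.24, 10.65, 10.67, 10.74 and 10.79 at 12 h. No 12 h liver reached a 0 h liver of its genotype, and the log2 change was -0.42 in WT (standard error 0.10, adjusted p = 0.0050 from limma) and -0.69 in KO livers (standard error 0.10, adjusted p = 4.63e-05). *F12*, factor XII of the same route, had changes of -0.06 and 0.05 and did not pass.

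*F13b* encodes the carrier subunit of factor XIII, which crosslinks fibrin. It ranged from 11.90 to 12.20 (median 11.94) at 0 h and from 11.48 to 11.75 (median 11.60) at 12 h in WT livers, and from 11.93 to 12.20 (median 12.14) and 11.33 to 11.66 (median 11.62) in KO livers. The groups were apart in both genotypes, with log2 changes of -0.39 (adjusted p = 0.0013 from limma) and -0.53 (adjusted p = 7.64e-05). *F9*, the factor lacking in haemophilia B, fell by 0.37 in WT (adjusted p = 0.0052) and by 0.43 in KO livers (adjusted p = 0.0017) on the log2 scale. *F2*, which encodes prothrombin, fell by 0.20 (adjusted p = 0.010) and by 0.22 (adjusted p = 0.0063), and with each array centred the WT value was -0.11 (adjusted p = 0.15). *F7* and *F10* are neighbours on chromosome 8 with 0 protein-coding genes between them and did not pass, with changes of 0.17 and -0.11 in WT and of -0.03 and -0.18 in KO livers (adjusted p = 0.050 for *F10* in KO livers, just past the threshold). *Plg*, the precursor of the clot-dissolving enzyme plasmin, had changes of -0.14 and -0.19 (adjusted p = 0.12 and 0.054) and *F5*, a cofactor of prothrombin activation, of 0.14 and 0.16 (adjusted p = 0.12 and 0.091).

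In the lectin route of complement the 2 mannose-binding lectins, paralogs that recognise microbial sugars, parted. *Mbl1* had 10.97, 11.03, 11.04, 11.05 and 11.10 in WT livers at 0 h and 9.83, 10.09, 10.11, 10.29 and 10.48 at 12 h. The KO livers lay between 10.86 and 11.08 (median 10.98) at 0 h and had 9.47, 10.11, 10.19, 10.23 and 10.27 at 12 h. The lowest 0 h liver was above the highest 12 h liver in both genotypes, and KO mouse 166 lay below the other KO livers at 12 h. The log2 change was -0.88 in WT (standard error 0.13, adjusted p = 2.4e-05 from limma) and -0.90 in KO livers (standard error 0.13, adjusted p = 1.85e-05), or 1.84-fold and 1.87-fold lower, the largest change of a member in WT livers and, after *Fga*, the next largest in KO livers.

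*Mbl2* had 12.18, 12.28, 12.39, 12.45 and 12.61 in WT livers at 0 h and 12.27, 12.35, 12.35, 12.37 and 12.39 at 12 h. The KO livers had 11.98, 12.22, 12.26, 12.39 and 12.50 at 0 h and 12.06, 12.18, 12.32, 12.33 and 12.52 at 12 h. The times overlapped in both genotypes, and the log2 change was -0.04 (95% confidence interval -0.24 to 0.17) in WT and 0.01 (-0.19 to 0.22) in KO livers. The change of *Mbl1* exceeded that of *Mbl2* by -0.84 in WT and -0.91 in KO livers (p = 0.0079 each, exact permutation test, two-sided, the smallest possible, 0.014 adjusted over the same 14 tests).

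*Masp1*, which encodes a protease that the lectins carry, was the only member that rose in both genotypes. It ranged from 11.14 to 11.23 (median 11.15) at 0 h and from 11.25 to 11.43 (median 11.35) at 12 h in WT livers, and in KO livers lay at or below 11.09 (median 11.05) at 0 h and from 11.24 to 11.33 (median 11.25) at 12 h. The groups were apart although the change was small, 0.17 in WT (standard error 0.05, adjusted p = 0.027 from limma) and 0.22 in KO livers (standard error 0.05, adjusted p = 0.0052). The call in WT livers was lost without any 1 of WT mice 146, 80, 147, 168 or 170 (log2 change 0.14 to 0.16, adjusted p from 0.051 to 0.073).

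Among the proteins of the convertases, *Cfb*, which encodes factor B of the alternative route, fell by 0.28 in WT livers (adjusted p = 0.0020 from limma) and had -0.16 in KO livers (adjusted p = 0.074). *C4b* rose by 0.27 in KO livers (standard error 0.08, adjusted p = 0.023) and had 0.12 in WT livers (adjusted p = 0.29). Its call was lost without any 1 of KO mice 77, 143, 76, 55 or 110 (adjusted p from 0.052 to 0.062). *C4b* and *C4a* are near-identical copies, so that the signal of either may hold RNA of the other, and *C4a* rose by 0.54 in KO livers. *C2* had 0.01 and 0.15 and did not pass.

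The terminal components that build the pore had lower means at 12 h for 6 of 6 members in both genotypes, of which 4 passed in WT and 2 in KO livers. *C9*, the component that forms the wall of the pore, had 12.43, 12.46, 12.65, 12.69 and 12.71 in WT livers at 0 h and 11.81, 11.94, 12.06, 12.07 and 12.24 at 12 h. In KO livers it had 12.51, 12.54, 12.67, 12.71 and 12.77 at 0 h and 12.01, 12.24, 12.32, 12.37 and 12.55 at 12 h. The times were apart in WT livers, whereas the highest KO liver at 12 h lay within the range of 0 h. The log2 change was -0.56 in WT (standard error 0.10, adjusted p = 0.000165 from limma) and -0.34 in KO livers (standard error 0.10, adjusted p = 0.013, and 0.057 with quantile normalization).

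*C8a* and *C8b*, neighbours on chromosome 4 that encode chains of C8, had changes of -0.27 and -0.26 in WT livers, which both passed, and of -0.21 (adjusted p = 0.053 from limma) and -0.24 (adjusted p = 0.014) in KO livers. With each array centred neither passed in WT (-0.18 and -0.17, adjusted p = 0.080 and 0.073), nor did *C8b* in KO livers (-0.18, adjusted p = 0.080). *C8g*, the third chain, had -0.18 (adjusted p = 0.054) and -0.15. *Hc*, which encodes C5, fell by 0.19 in WT livers (adjusted p = 0.044), a call lost without any 1 of WT mice 146, 78, 145, 147, 167, 168, 169 or 170 or KO mouse 109 (adjusted p from 0.050 to 0.11) and with each array centred (-0.099, adjusted p = 0.32). *C6* had 10.01, 11.08, 11.31, 11.38 and 11.50 in WT livers at 12 h, where WT mouse 170 lay apart, and 11.24, 11.54, 11.57, 11.72 and 11.92 at 0 h. Its change of -0.54 in WT livers had a standard error of 0.21 and did not pass (adjusted p = 0.061).

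Of the 9 inhibitors and regulators, 4 fell in both genotypes and 0 rose. *C4bp*, which encodes the C4b-binding protein, a soluble inhibitor of complement, ranged from 12.73 to 12.92 at 0 h and from 12.45 to 12.59 at 12 h in WT livers, and from 12.79 to 12.94 and 12.50 to 12.69 in KO livers. It fell by 0.34 and 0.32 on the log2 scale (adjusted p = 0.000242 and 0.000498 from limma). *Cfi*, a protease that cuts C3b and C4b, fell by 0.31 and 0.30 (adjusted p = 0.0035 and 0.0061). *Serpinc1*, which encodes antithrombin, fell by 0.20 and 0.24 (adjusted p = 0.010 and 0.0042), and *Serpind1*, which encodes heparin cofactor II, by 0.19 and 0.20 (adjusted p = 0.022 and 0.018). With each array centred, *Serpinc1* in WT livers (-0.11, adjusted p = 0.14) and *Serpind1* in both genotypes (-0.10 and -0.15, adjusted p = 0.24 and 0.11) did not pass. The call of *Serpind1* was lost in WT livers without WT mouse 146 or 170 (adjusted p = 0.064 and 0.051) and in KO livers without KO mouse 77 (0.055). *Serping1*, *Vtn*, *Proc*, *Pros1* and *Serpinf2* did not pass, with changes between -0.12 and 0.14.

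By class, 6 of 13 complement genes fell and 1 rose in WT livers (median log2 change -0.19), and 3 fell and 2 rose in KO livers (-0.13). Of the 13 clotting genes, 7 fell in each genotype (medians -0.20 and -0.22), and of the 9 inhibitors 4 in each (medians -0.12 and -0.12). The mean of the array medians was itself lower at 12 h than at 0 h, by a log2 difference of -0.073, and with each array centred the medians were -0.11 for the clotting genes in WT livers and -0.033 and -0.058 for the inhibitors in WT and KO livers. With each array centred on its median, 11 members fell and 4 rose in WT and 12 fell and 3 rose in KO livers, and with quantile normalization 11 fell and 4 rose in KO livers. The shares of all probe sets given above are those of the main fit and do not apply to these counts. No shares by direction were counted for these settings, so whether these counts depart from the whole array cannot be told. The mean levels of batches 1, 2, 3 and 4 at 0 h spanned a median of 0.14 per member after genotype was removed (highest 0.38). Each of these batches holds 1 or 2 livers of a genotype, so that span includes the spread between mice. No such value can be given for batch 5.

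Markers of other cells moved with time as well. The shares of all probe sets to set beside their counts are 14.3% that fell and 13.5% that rose in WT livers, and 9.69% and 10.6% in KO livers. Of 7 Kupffer cell markers 5 fell in WT livers (median log2 change -0.48) and 2 in KO livers (-0.32), and their mean level ranged from 9.41 to 9.74 at 0 h and 8.86 to 9.31 at 12 h in WT, and from 9.23 to 9.73 (median 9.51) at 0 h and up to 9.40 (median 9.24) at 12 h in KO livers. Of 8 hepatocyte markers 2 rose in WT and 0 in KO livers (medians -0.0017 and -0.012), and 0 fell. Of 8 endothelial markers 3 rose in WT and 1 in KO livers, of 5 platelet and of 6 neutrophil markers 0 passed, and 1 of 4 cholangiocyte markers fell in each genotype. Of 6 stellate cell markers 2 rose and 1 fell in WT and 1 fell in KO livers, and of 3 erythroid markers 1 fell in WT livers. Their part in the changes of the members was not tested.

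Complement and clotting genes outside the list were given for comparison. Over all probe sets 14.3% fell and 13.5% rose in WT livers, and 9.69% fell and 10.6% rose in KO livers. Of 19 other complement genes 5 fell in WT livers, *Fcna* (-0.62), *C1qa* (-0.48), *C1qb* (-0.43), *Cfp* (-0.36) and *Fcnb* (-0.23), which encode ficolins, subunits of C1q and properdin. In KO livers *Fcna* (-0.48) and *Cr1l* (-0.38) fell, and *C4a* (0.54) and *C1ra* (0.41) rose. *C1qa* is also one of the Kupffer cell markers. Of 26 other clotting genes 7 fell and 4 rose in WT livers (26.9% and 15.4%) and 4 fell and 3 rose in KO livers (15.4% and 11.5%). *Tfpi2*, an inhibitor of plasmin and other proteases, fell by 0.84 and 1.32 on the log2 scale, and *Serpina10*, an inhibitor of factor X, by 0.79 and 0.76. *Vkorc1*, the enzyme that recycles vitamin K, rose by 0.28 and 0.39, and *Proz*, the cofactor of *Serpina10*, rose by 0.39 and 0.25.

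Acute phase genes were given beside the fibrinogen chains. Of 15, 5 fell in WT livers and 4 in KO livers, and 0 rose. Over all probe sets 14.3% fell in WT and 9.69% in KO livers, and 13.5% and 10.6% rose. *Apcs*, serum amyloid P, fell by 1.07 and 1.13, *Hpx*, the haem scavenger hemopexin, by 0.37 and 0.22, and *Orm1*, an acid glycoprotein, by 0.33 and 0.34. *Saa1*, a serum amyloid A, was spread widely between mice, from 9.04 to 10.75 in WT and 8.84 to 12.75 in KO livers at 0 h and from 8.05 to 9.68 and 8.31 to 10.95 at 12 h, and fell in KO livers (-1.74, adjusted p = 0.033 from limma). The library labelled KO mouse 1 stood apart at 0 h. It had the highest level of its group in 15 of 15 acute phase genes, with *Saa1* at 12.75, *Saa2* at 13.47, *Lcn2* at 11.52 and *Hp* at 14.03, but in 11 of 35 members. Without it *Saa1* (-1.25, adjusted p = 0.11) and *Hpx* (-0.18, adjusted p = 0.11) no longer passed in KO livers, whereas no member gained or lost its call there, and *Fga* fell by 0.94, *Fgb* by 0.35 and *Fgg* by 0.48 on the log2 scale. At 12 h KO mouse 110 had the highest level of its group in *Saa1* (10.95), *Saa2* (12.06) and *Lcn2* (10.65). The next highest KO livers at 12 h had 8.83, 10.39 and 9.27. KO mouse 110 was also highest in the other acute phase genes except *Saa3*, *Itih4* and *Serpina3n*. The part of an acute phase state of single mice was not tested.

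The comparison of KO with WT livers asked whether loss of *Crem* altered these transcripts. None of the 35 members passed at 0 h, at 12 h, over both times or for the difference of the genotype effect between the times (limma, adjusted p under 0.05), and 0%, 0.0234%, 0.0117% and 0% of all probe sets did. At an unadjusted p under 0.05 the counts of members were 2, 4, 4 and 1 (5.71%, 11.4%, 11.4% and 2.86%), and those of all probe sets 4.47%, 12.5%, 9.88% and 6.84%. The other settings of the fit also called 0 members in each of the 4 comparisons. The mean level of *Crem* itself was lower in KO than in WT livers, with log2 differences of -0.48 at 0 h, -0.37 at 12 h and -0.42 over both times, which did not pass over all probe sets (limma adjusted p = 0.99, 0.19 and 0.14). At 0 h the library labelled KO mouse 1 had a *Crem* level of 8.17, above that of WT mouse 80 (8.11). Without that KO library *Crem* passed over both times (-0.46, adjusted p = 0.049), and without either of the pair 0 members passed for genotype as well.

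Differences between genotypes were small for most members. At 0 h the log2 differences of KO from WT livers lay between -0.15 and 0.12, and for 31 of 35 members the 95% confidence interval lay within 0.3 of 0. At 12 h they lay between -0.35 and 0.46, and 28 intervals lay within 0.3 of 0. The median confidence interval reached 0.15 to either side of the estimate at each time. Over both times 32 of 35 intervals lay within 0.3 of 0.

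**Figure D4:**
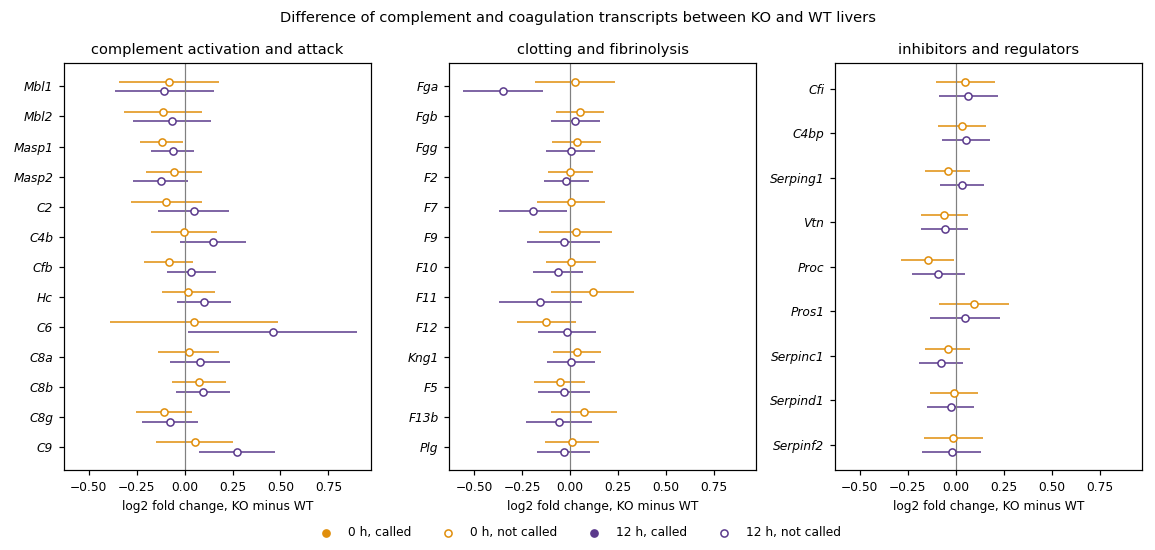
Log2 fold change between KO and WT livers (x axis, KO minus WT) of the 35 members at 0 h (orange) and at 12 h (purple), in panels by class. Points are limma estimates, bars 95% confidence intervals, and open points did not pass an adjusted p under 0.05. All points are open, and *Fga* at -0.35 and *C6* at 0.46 lie farthest from 0, both at 12 h.

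The members named next had an unadjusted p under 0.05 and were singled out for it, so that their exact p-values are a description. Adjusted over the 12 exact permutation tests of these members (Benjamini-Hochberg), the lowest p was 0.095, for *Masp1* at 0 h. *Fga* was lower in KO livers at 12 h by 0.35 on the log2 scale (standard error 0.10, limma p = 0.0023, adjusted p = 0.17), with 3 of 5 KO livers below every WT liver (p = 0.032, exact permutation test, two-sided). At 0 h the difference was 0.03. The difference of these was -0.37 (95% confidence interval -0.67 to -0.08, limma adjusted p = 0.64), and the second probe set of *Fga* gave -0.43 at 12 h (adjusted p = 0.20) and -0.56 for the difference (adjusted p = 0.64). Within batches 1, 2, 3 and 4 at 0 h, KO minus WT was -0.03, 0.26, 0.17 and -0.34, so that batch 4 alone gave a value near that of 12 h.

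*C9* was higher in KO livers at 12 h by 0.27 (standard error 0.10, limma p = 0.0096, adjusted p = 0.24), with 3 of 5 KO livers above every WT liver (exact permutation test, two-sided, p = 0.056). Within the 0 h batches KO minus WT was -0.06, -0.15, 0.09 and 0.33. *C6*, which lies near *C9* on chromosome 15 with 8 protein-coding genes between them, was higher by 0.46 (standard error 0.21, limma adjusted p = 0.38, exact permutation p = 0.15). Without WT mouse 170 it was higher by 0.20. *F7*, the factor that tissue factor activates, was lower by 0.19 (standard error 0.09, limma adjusted p = 0.35, exact permutation p = 0.056).

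At 0 h *Masp1* was lower in KO livers by 0.12 (standard error 0.05, limma adjusted p = 0.99). All 5 KO livers lay below every WT liver, as did those of 0.385% of all probe sets (99, with 88 apart the other way). The exact permutation p of 0.0079 (two-sided) is the smallest that 5 against 5 mice allow. At 12 h 0 of 35 members were apart in either direction, against 2.42% of all probe sets. Within batches 1 to 5 KO minus WT of *Masp1* was -0.06, -0.13, -0.14, -0.15 and -0.06. The sign in batches 1 to 4 was fixed by the separation at 0 h, and each of these batches holds 1 or 2 livers of a genotype. *Proc*, which encodes protein C and lies on chromosome 18 as does *Crem*, with 106 protein-coding genes between them, was lower by 0.15 at 0 h (standard error 0.07, adjusted p = 0.99) and by 0.09 at 12 h, with -0.18, -0.01, -0.05, -0.21 and -0.09 in batches 1 to 5. For a gene on that chromosome, strain alleles linked to the mutation and loss of *Crem* cannot be told apart in these mice.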

How the data were processed

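The deposited table holds a log2 value for each probe set and array, which the authors had made by RMA (named with no version in the submitters' processing notes). The sources used here do not tell whether other tissues entered the normalization. Values are relative, so levels of different probe sets were not compared as transcript numbers. Of 35557 probe sets, 9868 held no value and 25689 were tested. Genes were named from the platform's annotation, with 20777 probe sets assigned to 1 gene, 232 to several and 4680 to none, and 0 symbols changed by RefSeq. Where a gene had several probe sets, the brightest over all arrays stood for it. The files name no genome build, and coordinates are those of RefSeq windows.

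Genotype and time were read from the label of each sample. Values were fitted with limma 3.58.1 (R 4.3.3) as 4 group means over 20 arrays, with a Benjamini-Hochberg adjusted p under 0.05 over all probe sets and 95% confidence intervals. The number of arrays limits the precision. For single values all regroupings of 5 against 5 mice were enumerated. The model was tested on simulated data. Members were described one by one where they were called for genotype, were among the 10 largest changes with time or had a mouse lying apart. Other members were described singly as well, in most cases more briefly. The genotype differences that missed the threshold were described after their values were seen. Of other lists at most 6 genes passing the test were named per list and direction. The members and lists were chosen with earlier results of these data known. Alternatives were batch as a fixed or random block, only the arrays compared, only brighter probe sets, quantile normalization, centring, array weights, a robust prior with an intensity trend, the mean of the probe sets of a gene, and leaving out each mouse.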

Additional observations from a re-analysis of the deposited data

Results flagged for a closer look

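In 8 of 140 groups of 5 livers, 1 mouse lay so far from the other 4 that Dixon's gap test marked it at the 95% level, and chance marks about 7.0. All 8 were 12 h livers. *Mbl1* was 9.47 in KO mouse 166, against 10.11 to 10.27 in the other KO livers. In KO mouse 55, *Cfb* was 12.81 (others 12.70 to 12.73) and *F11* was 10.24 (others 10.65 to 10.79). In WT mouse 170, *C6* was 10.01 (others 11.08 to 11.50) and *Serpinc1* was 12.48 (others 12.56 to 12.58). In WT mouse 111, *Fgb* was 13.55 (others 13.38 to 13.40), *Fgg* 13.47 (others 13.23 to 13.26) and *F5* 12.02 (others 11.87 to 11.91). The source of these values was not tested.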

How the results depend on the processing

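No paired analysis was possible because no mouse number occurs in more than 1 group. Of the settings that kept all mice, 0 reversed the direction of a member called with time, and 0 called a member for genotype. The directions of members that had not passed with time were not compared between settings. The counts of members called with time, both directions together, stayed within 1.5 times (15 to 20 in WT and 15 to 21 in KO livers). By direction the counts moved further, as given above for centring and quantile normalization. The median change of the inhibitors in KO livers was -0.057 with quantile normalization and -0.058 with each array centred on its median, where that of the clotting genes in WT livers was -0.11 and that of the inhibitors in WT livers -0.033; the cause was not tested. Centring also ended the calls of *C8a*, *C8b*, *F2*, *Serpinc1*, *Serpind1* and *Hc* in WT and of *C8b* and *Serpind1* in KO livers, and quantile normalization those of *Hc* in WT and of *C8b*, *C9* (adjusted p = 0.057) and *Serpind1* in KO livers. A fit of only the arrays compared ended those of *Hc*, *Masp1* and *Serpind1* in WT and of *Serpind1* in KO livers, and a random block for batch (correlation 0.0286) that of *Hc*. Leaving out 1 mouse gave 15 to 19 calls in WT and 14 to 18 in KO livers and 0 for genotype. Leaving out WT mice 80 and 170 together, chosen after seeing the data, gave 15 and 18 and 0. The fit of acute phase genes without KO mouse 1 was also added after seeing the data. Summarised values do not show the signal of single probes over background.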

Other observations

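Regulators known to act on liver genes were listed beside the members. Of 19, 10 rose and 1 fell from 0 h to 12 h in WT livers, and 8 rose and 1 fell in KO livers (limma, adjusted p under 0.05), against 13.5% and 10.6% of all probe sets that rose and 14.3% and 9.69% that fell. *Dbp* and *Tef*, clock output factors that bind the D-box, rose by 2.80 and 1.70 on the log2 scale in WT and by 2.99 and 1.81 in KO livers. *Nfil3*, a repressor that binds the same element, fell by 1.47 and 1.65. *Il6ra*, the receptor of the acute phase cytokine interleukin 6, rose by 1.53 and 1.47, and *Cebpb*, a factor of the acute phase response, by 0.78 and 0.43. *Ppara*, a nuclear receptor of fatty acids, rose by 0.83 and 0.90. None of the 19 passed for genotype. These values share batch 5 at 12 h with those of the members, and no relation between a regulator and a member was tested.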
